A study of Arabidopsis thaliana with 18 samples.

Results

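A set of 34 probe sets of the Affymetrix ATH1 array was lower 1 h after a water spray than at 0 h in both etr1-1 and Col-0 plants. On the scale log2(intensity + 16), a member had a mean of 5.5 or more over the 18 arrays and a difference of -0.5 or less in each genotype between the DV001 water array at 1 h and the water array at 0 h. Expansin genes of the EXPA group, GASA genes, GID1A to GID1C, XERICO and plastid-encoded genes were left out by the rule, which removed 1 further probe set, that of EXPA8. The 34 members came from 14069 non-control probe sets at or above that level, of 22746 in all. Of the members, 18 name 1 gene in the platform table, 0 name several, and 16 are not listed there and are given by probe set ID.

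The plants were whole Arabidopsis thaliana plants of 14 days, of the line etr1-1 or of the wild type Col-0. The etr1-1 line carries a dominant allele of an ethylene receptor and is insensitive to ethylene, and GA4 is a bioactive gibberellin that was dissolved in water for the spray. For each genotype there was 1 array of water at 0 h, 1 of GA4 at 30 min, 3 of water at 1 h, 3 of GA4 at 1 h and 1 of GA4 at 3 h, so that every plant after 0 h had been sprayed. Array titles begin with DV001 (10 arrays, 1 for each of the 10 groups) or DV002 (8 arrays, replicates 1 and 2 at 1 h). These are read here as batches, a word the titles do not use. Some DV001 titles also hold the word repeat, which is not explained and was not used. Both 0 h arrays have it, and the DV001 water array at 1 h has it in Col-0 but not in etr1-1. At 30 min only the Col-0 title has it, and at 3 h only the etr1-1 title. The fall in etr1-1, and 3 h against 30 min in both genotypes, thus compare arrays with and without it. The fall is set against 1 array of 0 h in each genotype. That array has replicate number 1 and the 1 h array of DV001 has number 3, while the 1 h array with number 1 is in DV002, so time cannot be told apart from replicate number in the differences within DV001, nor from batch in those of the DV002 arrays from 0 h. No group of unsprayed plants at 1 h was analysed here, so the spray also cannot be told apart from the hour that passed. Nothing in the labels tells whether replicate arrays hold different plants, and the p-values therefore measure the spread between arrays, part of which may be technical. The number of arrays limits the precision. In whole plants, fewer cells of a type and less RNA per cell cannot be told apart.

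Spraying or touching a plant is a mechanical stimulus, and Arabidopsis leaves are known to change many transcripts within an hour of it. A fall within such a time needs a transcript that turns over quickly, and genes of auxin response are well known for short-lived transcripts. Auxin acts by removing Aux/IAA repressor proteins, and many of their own genes are under its control. Pectate lyases cut de-esterified pectin in the cell wall, and they form a large gene family in Arabidopsis. Family names given here to loci that have no symbol are background knowledge of these loci.

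The members ranged in mean level from 5.53 to 8.95 on the log2(intensity + 16) scale, with a median of 6.47, beside a median of 6.78 over the 14069 probe sets. Their median level was thus slightly below that of these probe sets. The pectate lyase gene AT4G24780 had the highest level and AT3G13760, a gene of the cysteine- and histidine-rich C1 domain family, the lowest. The 18 named genes lay on all nuclear chromosomes, with 4 on chromosome 1, 4 on chromosome 2, 2 on chromosome 3, 3 on chromosome 4 and 5 on chromosome 5. No pair of them was adjacent, and the nearest pair, DFR and AT5G43720, was 136 genes apart.

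The members were chosen by measured values, namely the differences of the 4 DV001 water arrays, which are described here without a test. On the DV001 arrays the members' median difference of water 1 h from 0 h was -0.59 in etr1-1 and -0.67 in Col-0, beside medians of -0.02 and -0.01 over all probe sets at that level. With EXPA8, 0.249% of the probe sets at that level met the threshold in both genotypes, and 1.41% met the opposite one of 0.5 or more. Just inside the threshold, by the smaller of the 2 falls, lay 259102_at (-0.506 in etr1-1), AT5G12110 (-0.505 in Col-0), 251109_at (-0.503 in Col-0) and 249383_at (-0.5 in Col-0). Just outside it lay AT3G19120 and AT3G15570 (both -0.497 in etr1-1), 252607_at (-0.494 in etr1-1) and 254564_at (-0.490 in etr1-1). The edge is thus finer than the difference between replicate arrays.

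The 2 water arrays at 1 h in DV002 did not enter the fall. Both share the 0 h array with it, so the values are set side by side and not tested. In etr1-1 the members' median difference from 0 h was -0.87 and -0.86 on replicates 1 and 2, and in Col-0 it was -0.78 and -0.80. A difference of -0.5 or less in both genotypes was found for 23 of the 34 members on replicate 1, where 3.38% of all probe sets at the level had it. On replicate 2 it was found for 21 members, beside 3.96% of all, and on both replicates for 17 members, beside 1.66% of all. Below 0 on all 4 of these arrays were 30 of the 34 members, beside 28.8% of all probe sets. All-probe-set differences spread more widely on these arrays, since 8.51% and 8.61% of probe sets in etr1-1 and 7.58% and 8.30% in Col-0 were at -0.5 or less, against 1.80% in etr1-1 and 3.01% in Col-0 on the DV001 water arrays.

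**Figure D1:**
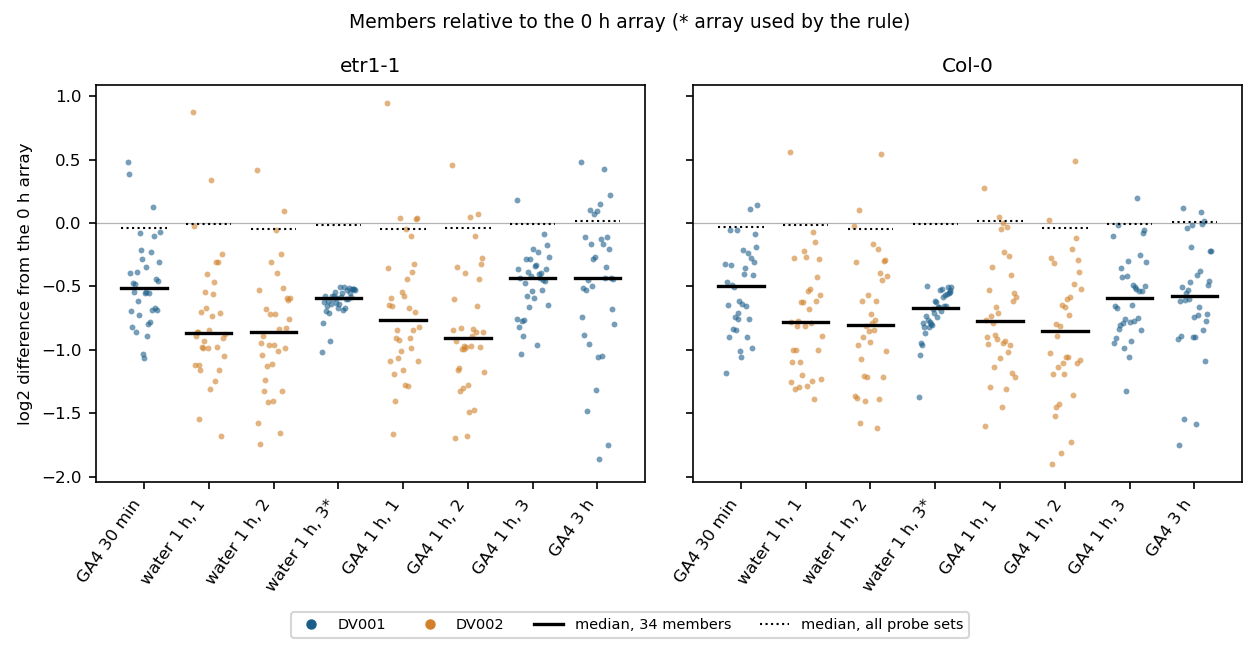
Log2 difference from the 0 h array of the same genotype (vertical axis, on log2(intensity + 16)) for each of the 34 members (points) on each later array, etr1-1 on the left and Col-0 on the right, coloured by DV001 or DV002. Solid bars mark the members' median and dotted bars the median of all 14069 probe sets, and the members' medians lie between -0.91 and -0.44 in etr1-1 and between -0.85 and -0.50 in Col-0.

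The 4 members that were not below 0 on every DV002 water array were AT3G13760, AT5G43720, AT1G13730 and 264436_at. For AT3G13760 the water 1 h arrays of etr1-1 read 61.7, 40.5 and 4.9 units for replicates 1, 2 and 3, against 26.3 units at 0 h. Those of Col-0 read 53.3, 30.1 and 2.1 units, against 30.9 units at 0 h. Only the 2 arrays used by the rule, replicate 3 of each genotype, were under 5 units, and the other water arrays lay near or above 0 h. AT5G43720 read 80.0, 57.2 and 34.8 units in etr1-1 at 1 h after water, against 60.0 units at 0 h, and again replicate 3 was lowest. In 264436_at replicate 2 stood apart in all 4 groups at 1 h, with 163.6 and 167.3 units in etr1-1 after GA4 and water and 140.1 and 146.0 units in Col-0 after GA4 and water, while the other arrays at 1 h lay between 41.0 and 109.6 units.

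The 0 h array was above all 7 arrays of its genotype that the rule on the fall did not use in both genotypes for 18 of the 34 members, beside 6.18% of all probe sets. The members had been chosen in part for high values on these 0 h arrays, which the other probe sets had not. Among the 18 were AT4G24780, AT2G42690, AT2G34620, IAA29, AT1G32580, AT1G49470, AT2G01870, AT4G33666, AT3G57010 and AT1G73620. Each of these comparisons rests on 1 array of 0 h per genotype. The 3' to 5' ratios of control probe sets report on RNA and labelling. For actin the log2 ratio was 2.64 on the DV001 water array at 1 h and 1.82 at 0 h in etr1-1, and 1.99 at 1 h and 2.70 at 0 h in Col-0. For GAPDH it was 0.52 at 1 h and 0.35 at 0 h in etr1-1, and 0.24 at 1 h and 0.19 at 0 h in Col-0, where 0 h had the lowest ratio of the 9 arrays. For ubiquitin it was 1.36 at 1 h and 1.51 at 0 h in etr1-1, and 1.75 at 1 h and 1.25 at 0 h in Col-0. The GAPDH ratio was thus higher on the DV001 water array at 1 h than at 0 h in both genotypes, while those of actin and ubiquitin moved in opposite directions in the 2 genotypes. The part of RNA quality in the result was not tested.

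Both pectate lyase members were bright. AT4G24780 in etr1-1 had 727.5 units at 0 h, 406.0 at 30 min after GA4, 393.4, 369.2 and 444.3 at 1 h after water, 476.1, 374.3 and 533.2 at 1 h after GA4, and 671.3 at 3 h after GA4. In Col-0 it had 837.7 units at 0 h, 442.2 at 30 min after GA4, 411.3, 422.1 and 476.9 at 1 h after water, 425.5, 357.6 and 521.4 at 1 h after GA4, and 586.8 at 3 h after GA4. In both genotypes every later array lay below 0 h, and the 3 h array lay above all arrays of 30 min and 1 h. The 3 water arrays at 1 h averaged 402 ± 38.3 units (SD) in etr1-1 and 437 ± 35.2 units (SD) in Col-0.

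AT5G63180 in etr1-1 had 181.2 units at 0 h, 154.4 at 30 min after GA4, 119.1, 103.6 and 119.3 at 1 h after water, 187.1, 83.1 and 108.7 at 1 h after GA4, and 190.9 at 3 h after GA4. The Col-0 arrays had 298.3 units at 0 h, 170.4 at 30 min after GA4, 120.9, 119.5 and 163.9 at 1 h after water, 150.5, 73.5 and 109.2 at 1 h after GA4, and 259.4 at 3 h after GA4. The 3 water arrays at 1 h lay below 0 h and 3 h in both genotypes, while replicate 1 after GA4 in etr1-1 lay slightly above 0 h. Of the 26 pectate lyase-like genes, 23 were measured with a name and 12 were at or above the level, and their median difference on the DV001 water arrays was -0.16 in etr1-1 and -0.19 in Col-0. The 10 genes of the family that are not members lay between -0.40 and -0.04 in etr1-1 and between -0.34 and 0.32 in Col-0 on those arrays, where the rule kept them above -0.5 in at least 1 genotype. On the DV002 water arrays some of them also lay well below 0 h. AT5G48900 differed by -0.62 and -0.70 in etr1-1 and by -0.75 and -0.63 in Col-0 on replicates 1 and 2. AT1G67750 differed by -0.59 on both in etr1-1 and by -0.94 and -1.12 in Col-0, and AT3G53190 by -0.88 and -0.45 in etr1-1 and by -0.66 and -0.71 in Col-0.

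**Figure D2:**
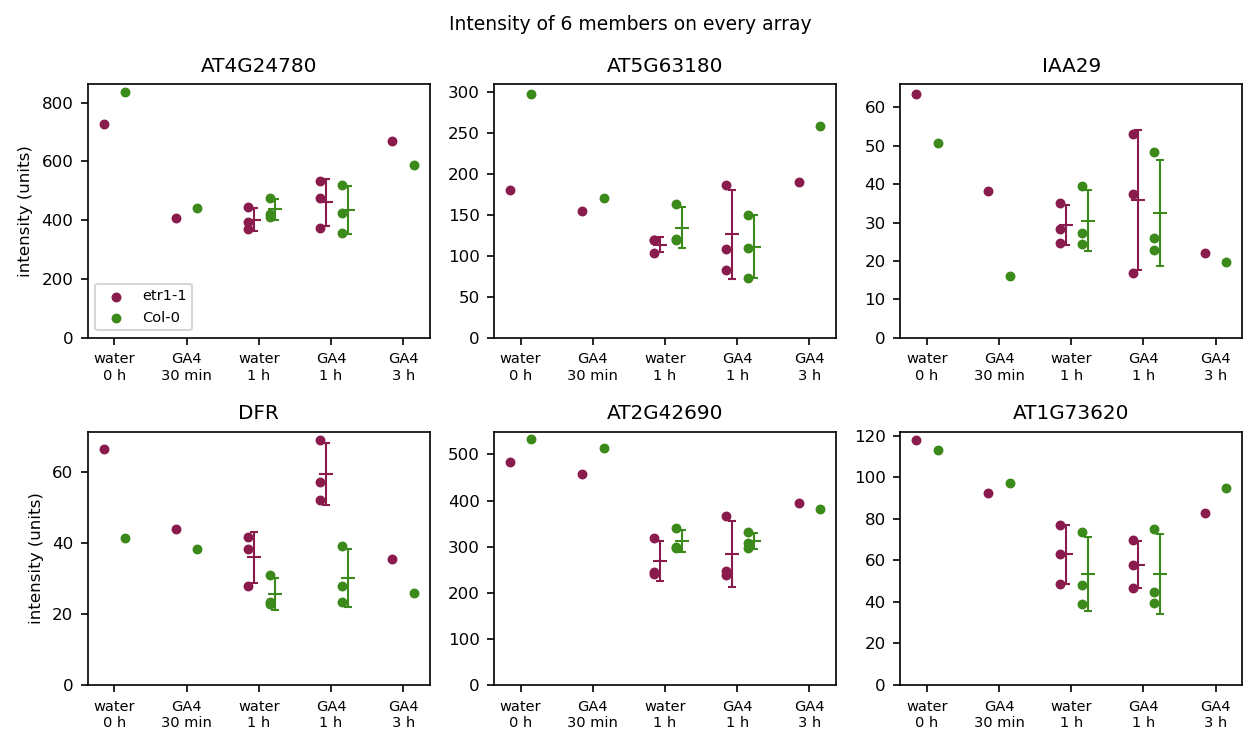
Intensity in units (linear axis from 0) of 6 members on every array, etr1-1 (left of each pair) and Col-0, by spray and time. Points are single arrays and bars the mean ± SD of the 3 arrays at 1 h. AT4G24780, AT5G63180, AT2G42690 and AT1G73620 lie higher at 3 h than at 1 h on average in both genotypes, while IAA29 does not.

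IAA29, a gene of an Aux/IAA repressor of auxin response, was a dim member. In etr1-1 it had 63.6 units at 0 h, 38.2 at 30 min after GA4, 28.4, 24.8 and 35.1 at 1 h after water, 37.5, 16.8 and 53.2 at 1 h after GA4, and 22.2 at 3 h after GA4. Its Col-0 arrays read 50.7 units at 0 h, 16.0 at 30 min after GA4, 39.5, 24.5 and 27.4 at 1 h after water, 48.4, 26.1 and 22.9 at 1 h after GA4, and 19.8 at 3 h after GA4. Every later array lay below 0 h in both genotypes, and the 3 h arrays were among the lowest. The other early auxin genes measured with a name did not meet the threshold on the DV001 water arrays. GH3.3, an auxin-conjugating enzyme gene, differed by 0.41 in etr1-1 and 0.12 in Col-0, WES1, another GH3 gene, by -0.15 and 0.23, and the homeobox gene HAT2 by 0.13 and 0.10. On the DV002 water arrays GH3.3 differed by -0.22 and -0.05 in etr1-1 and 0.09 and 0.18 in Col-0, WES1 by -0.13 and -0.33 in etr1-1 and -0.24 and -0.05 in Col-0, and HAT2 by 0.12 and 0.24 in etr1-1 and 0.51 and 0.48 in Col-0. IAA18, the other named Aux/IAA gene at the level, differed on the DV001 water arrays by -0.08 in etr1-1 and 0.35 in Col-0. Its differences on those of DV002 were -0.25 and -0.34 in etr1-1 and 0.17 and 0.02 in Col-0.

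DFR encodes dihydroflavonol reductase, an enzyme of anthocyanin synthesis. In etr1-1 it had 66.7 units at 0 h, 44.1 at 30 min after GA4, 28.0, 38.3 and 41.8 at 1 h after water, 69.1, 52.1 and 57.4 at 1 h after GA4, and 35.6 at 3 h after GA4. In Col-0 it had 41.6 units at 0 h, 38.3 at 30 min after GA4, 22.8, 31.0 and 23.4 at 1 h after water, 23.3, 28.0 and 39.3 at 1 h after GA4, and 25.9 at 3 h after GA4. At each time and spray its arrays in etr1-1 were higher on average than those in Col-0. UGT78D2, a flavonoid glycosyltransferase gene and the other gene of that pathway at the level, differed on the DV001 water arrays by 0.22 in etr1-1 and -0.02 in Col-0, and on the DV002 ones by 0.30 and 0.44 in etr1-1 and by -0.36 and 0.04 in Col-0.

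AT2G42690, a lipase-like gene, was close to its 0 h level at 30 min. In etr1-1 it had 484.2 units at 0 h, 457.8 at 30 min after GA4, 246.2, 240.3 and 319.5 at 1 h after water, 248.0, 238.7 and 367.1 at 1 h after GA4, and 395.1 at 3 h after GA4. The Col-0 arrays had 533.3 units at 0 h, 514.0 at 30 min after GA4, 339.6, 296.6 and 300.4 at 1 h after water, 331.1, 296.3 and 308.1 at 1 h after GA4, and 382.4 at 3 h after GA4. All arrays at 1 h lay below those at 0 h, 30 min and 3 h in each genotype. The thaumatin-like gene AT1G73620 had a like course in Col-0, with 112.9 units at 0 h, 97.1 at 30 min after GA4, 39.0, 47.9 and 73.5 at 1 h after water, 39.4, 45.0 and 75.2 at 1 h after GA4, and 94.8 at 3 h after GA4. Its arrays at 1 h in etr1-1 ran from 46.8 to 77.1 units, all below 117.7 units at 0 h, 92.2 at 30 min and 82.6 at 3 h.

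Genes of organelle gene expression were represented by AT2G34620, of the mTERF family, and AT1G32580, of the MORF family of organelle RNA editing factors. AT2G34620 in etr1-1 had 162.8 units on the DV001 water array at 1 h and 127.6 and 63.5 on those of DV002, against 249.8 units at 0 h. Its Col-0 arrays read 105.0 units on the DV001 water array and 94.5 and 74.5 on those of DV002, against 219.9 units at 0 h. Its arrays at 3 h after GA4 read 127.9 units (etr1-1) and 110.9 units (Col-0), still well below 0 h. AT1G32580 averaged 68.9 ± 12.1 units (SD) over the 3 water arrays at 1 h in etr1-1, against 106.4 units at 0 h, and 66.6 ± 3.30 units (SD) over those in Col-0, against 111.2 units at 0 h. Its arrays at 3 h read 85.4 units (etr1-1) and 109.9 units (Col-0).

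Genes of translation, secretion and RNA binding were AT5G12110, a subunit of the elongation factor eEF1B, AT2G39960, a signal peptidase subunit, and AT1G13730, a protein with NTF2 and RNA-binding domains. AT5G12110 had 72.3, 91.5 and 95.8 units at 1 h after water in etr1-1, against 145.7 at 0 h, and 49.5, 74.9 and 69.4 units in Col-0, against 105.2 at 0 h. Its relative AT5G19510, much brighter with a mean of 10.50 on the log2 scale, differed on the DV001 water arrays by -0.27 in etr1-1 and -0.14 in Col-0, and on the DV002 ones by -0.20 and -0.17 in etr1-1 and by -0.63 and -0.39 in Col-0. AT2G39960 differed on the DV001 water arrays by -0.52 in etr1-1 and -0.55 in Col-0, while the other 5 signal peptidase genes at the level lay between -0.16 and 0.13 in etr1-1 and between -0.13 and 0.13 in Col-0. On the DV002 water arrays those 5 lay between -0.39 and 0.41 in etr1-1 and between -0.44 and 0.48 in Col-0. AT1G13730 read 45.3, 37.9 and 54.7 units at 1 h after water in etr1-1, against 95.2 at 0 h. In Col-0 it read 79.4, 108.2 and 49.4 units at 1 h after water, against 99.8 at 0 h, so that replicate 2 lay above 0 h.

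Further named members were AT3G57010, of the strictosidine synthase-like family, AT5G03230, of a senescence regulator family, and AT1G49470, AT2G01870, AT4G33666 and AT5G43720, for which no role is given. AT2G01870 had 114.9, 81.2 and 155.1 units at 1 h after water in etr1-1, against 242.8 at 0 h, and 122.2, 95.5 and 156.1 units in Col-0, against 279.6 at 0 h. AT4G33666 had 122.6, 92.9 and 173.5 units in etr1-1, against 257.3 at 0 h, and 116.6, 116.5 and 204.9 units in Col-0, against 331.4 at 0 h. AT1G49470 had 61.8, 54.4 and 87.4 units in etr1-1, against 137.7 at 0 h, and 67.4, 72.6 and 100.1 units in Col-0, against 188.7 at 0 h. In these 3 genes the water array of DV001 was the highest of the 3 water arrays in each genotype, and all lay below 0 h.

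AT3G57010 differed from 0 h by -0.62 on the DV001 water array and by -1.12 and -0.53 on those of DV002 in etr1-1, and by -0.94, -0.78 and -0.31 in Col-0. AT5G03230 differed by -0.67, -0.99 and -1.41 in etr1-1 and by -0.62, -0.81 and -0.94 in Col-0. At 3 h after GA4 the genotypes parted for AT5G03230, with 98.6 units in etr1-1 and 45.3 units in Col-0, each from 1 array.

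Among the unlisted members 256299_at was bright. In etr1-1 it had 414.4 units at 0 h, 234.5 at 30 min after GA4, 165.9, 120.3 and 254.7 at 1 h after water, 213.9, 138.8 and 309.1 at 1 h after GA4, and 561.9 at 3 h after GA4. In Col-0 it had 833.1 units at 0 h, 439.5 at 30 min after GA4, 341.9, 260.2 and 575.6 at 1 h after water, 327.4, 240.5 and 576.4 at 1 h after GA4, and 885.6 at 3 h after GA4. The etr1-1 array was lower than the Col-0 array in every spray, time and replicate, and at 3 h both stood above 0 h. By contrast 256266_at read 16.6 units (etr1-1) and 33.0 units (Col-0) at 3 h, below each of its other arrays of the same genotype.

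After GA4 the members also lay below 0 h. At 30 min their median difference from 0 h was -0.51 in etr1-1 and -0.50 in Col-0, and 13 of the 34 were at -0.5 or less in both genotypes, beside 0.533% of all probe sets at the level. At 1 h in DV001 the medians were -0.44 in etr1-1 and -0.59 in Col-0, and 10 members were past -0.5 in both, beside 0.590%. In DV002 at 1 h, 20 members were past it on replicate 1 and 23 on replicate 2, beside 3.28% and 4.70% of all probe sets. At 3 h the medians were -0.44 in etr1-1 and -0.58 in Col-0, and 10 members were past it, beside 1.31%. All of these differences share the 0 h arrays with those that chose the members.

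Whether members changed between times after GA4 was tested in limma on the 14 arrays that the rule on the fall did not use, with spray and time as one term and genotype as another. For 3 h against 30 min the members' differences lay on both sides of 0. In limma 1 member passed an adjusted p of 0.05 over the 15922 probe sets tested, where 1.96% of all passed, 1.68% lower and 0.276% higher. It was 256266_at, lower at 3 h by a log2 difference of -1.13 ± 0.27 (SE, adjusted p = 0.0413). It had 16.6 units at 3 h and 65.1 at 30 min in etr1-1, and 33.0 at 3 h and 78.7 at 30 min in Col-0. The members' median difference was 0.03, beside 0.05 over all probe sets, and 18 of the 34 were above 0.

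The other 4 of the 5 members with the most negative differences of 3 h from 30 min were 264436_at (-1.23, the most negative), 258497_at (-1.08), 261226_at (-0.85) and AT5G12110 (-0.54). The 5 with the most positive differences were 256299_at (1.096), AT5G03230 (0.71), AT4G24780 (0.55), 250214_at (0.48) and AT5G63180 (0.42). None of these 9 passed without the replicate block. Replicate numbers pair the arrays at 1 h, but whether they pair those of 30 min and 3 h with the arrays at 1 h was not checked. With the replicate number as a block 6 members passed in limma, beside 5.09% of all probe sets, 1.51% higher and 3.58% lower. These were 256299_at, AT4G24780 (adjusted p = 0.0116) and 250214_at, higher at 3 h, and 256266_at, 258497_at and 264436_at, lower at 3 h. On the 6 GA4 arrays of DV001 alone, in limma, AT4G24780 (adjusted p = 0.00902), 256299_at, 256266_at, 258497_at and 264436_at passed, 2 higher and 3 lower, beside 5.88% of all probe sets (1.78% higher and 4.1% lower). Leaving out either genotype's array of 30 min or of 3 h ended the call of 256266_at without the block, with adjusted p-values from 0.137 to 0.444, and leaving out the etr1-1 GA4 array of replicate 1 at 1 h gave 0.0566. The count was 2 without the Col-0 GA4 array of replicate 2 or 3 at 1 h, the etr1-1 GA4 array of replicate 3 or the etr1-1 water array of replicate 2.

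**Figure D3:**
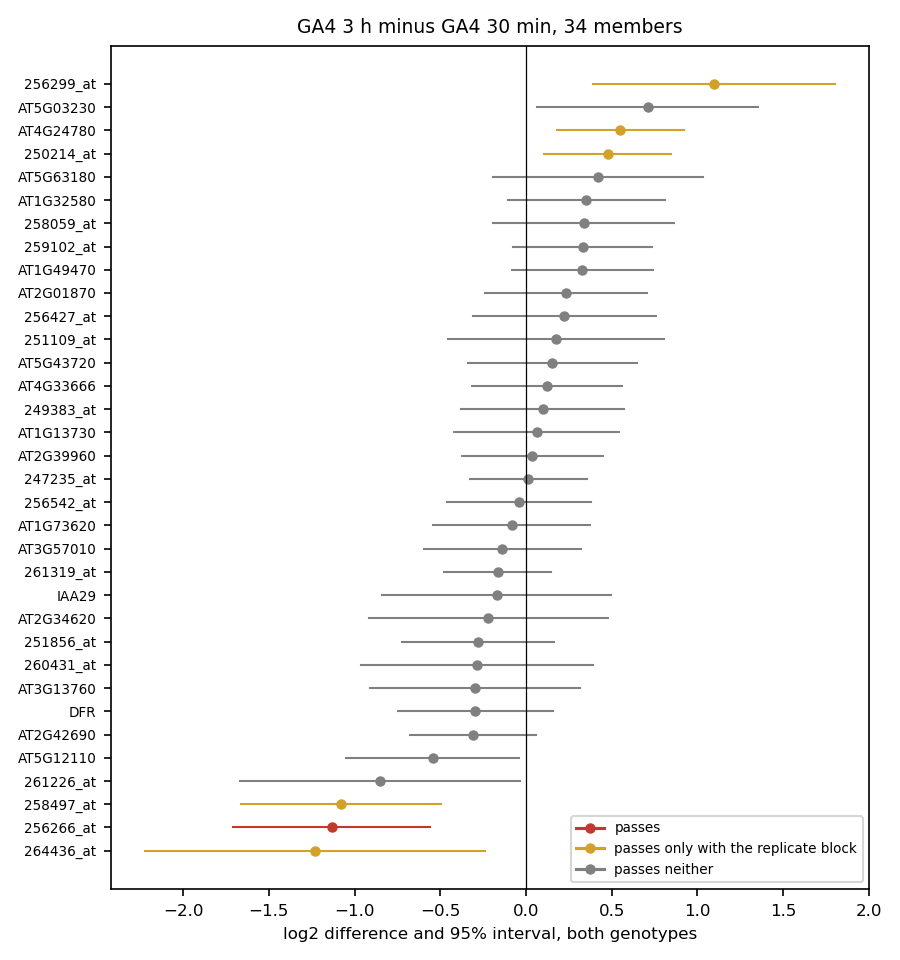
Log2 difference of GA4 3 h from GA4 30 min (horizontal axis) with its 95% interval for the 34 members, from the limma fit to 14 arrays. The colour marks whether a member passed an adjusted p of 0.05; 256266_at passed, 5 others passed with the replicate block only, and the remaining 28 passed neither.

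For 3 h against 1 h after GA4, 5 members were higher at 3 h and none lower in limma, beside 8.04% of all probe sets called, 3.49% higher and 4.55% lower. AT5G63180 was higher by 0.88 ± 0.23 (SE, adjusted p = 0.0326) and AT4G24780 by 0.49 ± 0.14 (adjusted p = 0.0477). The unlisted 256299_at was higher by 1.31 ± 0.27, 250214_at by 0.75 ± 0.14 and 261319_at by 0.43 ± 0.12. For 250214_at the values were 66.7 units at 3 h and 25.2, 27.3 and 39.6 at 1 h in etr1-1, and 62.2 units at 3 h and 30.4, 27.2 and 43.7 at 1 h in Col-0, with no overlap. The members' median difference was 0.28, beside 0.03 over all probe sets. In this fit the 3 h arrays are of DV001 and replicates 1 and 2 at 1 h of DV002, so time is mixed with batch. From 0 h the members' medians at 3 h were -0.44 in etr1-1 and -0.58 in Col-0. At 1 h after GA4 they were -0.44 and -0.59 in DV001. On replicates 1 and 2 of DV002 they were -0.76 and -0.91 in etr1-1 and -0.78 and -0.85 in Col-0.

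Among the 12 tested pectate lyase-like genes 3 were higher at 3 h than at 1 h and 0 lower, namely both members and AT1G67750 (0.81 ± 0.20, adjusted p = 0.0225, limma), with a median difference of 0.24. On the DV001 GA4 arrays AT1G67750 differed from 0 h by 0.27 at 3 h and -0.10 at 1 h in etr1-1. In Col-0 these values were -0.13 and -0.49. It lay lower on the DV002 GA4 arrays at 1 h, at -0.75 and -0.71 in etr1-1 and -1.27 and -1.14 in Col-0. With the replicate number as a block 5 of the 12 and 17 of the 34 members passed, 14 members higher and 3 lower, beside 22.5% of all probe sets (11% higher and 11.5% lower), and 261319_at no longer did (adjusted p = 0.0840). Named members that passed with that block only and were higher at 3 h were AT1G73620 (0.84, adjusted p = 4.43e-04), AT1G49470 (0.65, adjusted p = 0.00118), AT5G03230 (0.80), AT2G01870 (0.43), AT1G32580 (0.68), AT2G42690 (0.42) and AT4G33666 (0.39), as differences of the fit with the block. AT3G13760 (-0.87) was lower in that fit. With that block the 3 h arrays of DV001 are set against 1 h arrays of DV002, so time cannot be told apart from batch. On the GA4 arrays of DV001 alone the differences were smaller. They were 0.24, 0.19, 0.47, 0.23, 0.21, 0.20 and -0.02 in the order given, and -0.26 for AT3G13760. With the batch as a block no member passed in limma, a fit in which this contrast rests on the DV001 arrays. On the 6 GA4 arrays of DV001 alone 6 members passed in limma, 2 higher and 4 lower at 3 h, beside 3.88% of all probe sets (1.32% higher and 2.56% lower). Those higher were AT5G63180 (0.93, adjusted p = 0.00272) and 256299_at (0.72, adjusted p = 0.00375). Those lower were 264436_at (-1.07, adjusted p = 0.00787), 256266_at (-0.96, adjusted p = 0.00945), 258497_at (-0.71, adjusted p = 0.0183) and 260431_at (-0.75, adjusted p = 0.0290). AT4G24780 differed by 0.24 on those arrays (adjusted p = 0.256). Without the 3 h array of either genotype 0 members passed. The count was 2 without the etr1-1 GA4 array of replicate 2 at 1 h, 3 without the Col-0 GA4 array of replicate 2 at 1 h, the Col-0 water array of replicate 2 or either 30 min array, 8 without the Col-0 GA4 array of replicate 3 and 11 without the etr1-1 one.

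For 1 h against 30 min after GA4, 2 members were lower at 1 h in limma and none higher, beside 0.923% of all probe sets called, 0.477% lower and 0.446% higher. Here too time is mixed with batch, since replicates 1 and 2 at 1 h are of DV002 and the 30 min arrays of DV001. AT2G42690 was lower by -0.69 ± 0.14 (SE, adjusted p = 0.0341), and all 3 arrays at 1 h lay below the one at 30 min in each genotype. The unlisted 261319_at was lower by -0.59 ± 0.12 (adjusted p = 0.0324), with 38.6, 29.3 and 33.5 units at 1 h and 61.9 at 30 min in etr1-1, and 48.2, 38.8 and 36.8 units at 1 h and 66.9 at 30 min in Col-0. With the replicate number as a block 10 members passed, 1 higher and 9 lower, beside 16.7% of all probe sets, 8.96% higher and 7.71% lower. Among them were AT1G73620 (-0.93, adjusted p = 4.85e-04) and AT5G12110 (-0.86, adjusted p = 0.00414), both lower at 1 h, as differences of the fit with the block. That block sets the 30 min arrays of DV001 against 1 h arrays of DV002, so time cannot be told apart from batch. Within DV001 each of these 2 genes differed by -0.32. With the batch as a block no member passed in limma, and AT2G42690 differed by -0.51 (adjusted p = 0.237). On the 6 GA4 arrays of DV001 only 261319_at passed, lower at 1 h by -0.65 (adjusted p = 0.0437), beside 1.38% of all probe sets (1.01% lower and 0.364% higher). Without the 30 min array of either genotype, or the GA4 array of replicate 2 at 1 h of either, 0 passed. The count was 1 without either GA4 array of replicate 1 at 1 h or the Col-0 water array of replicate 2, it was 4 without the Col-0 GA4 array of replicate 3, and 5 without the etr1-1 one.

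The genotypes were compared on the same 14 arrays. In limma 4 of the 34 members differed, 2 higher and 2 lower in etr1-1, beside 4.41% of all probe sets called, 1.99% higher and 2.42% lower. AT1G13730 was lower in etr1-1 by -0.63 ± 0.12 (SE, adjusted p = 0.00790) and 256299_at by -0.81 ± 0.18 (adjusted p = 0.0167). DFR was higher in etr1-1 by 0.43 ± 0.11 (adjusted p = 0.0445) and 251109_at by 0.64 ± 0.16 (adjusted p = 0.0328). For AT1G13730 the GA4 arrays read 63.9 units at 30 min, 54.5, 71.5 and 38.2 at 1 h and 61.1 at 3 h in etr1-1, against 95.2 at 30 min, 64.3, 76.9 and 98.7 at 1 h and 109.8 at 3 h in Col-0. In every spray, time and replicate of the 14 arrays the etr1-1 array was the lower of the pair.

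The other 30 members did not pass, with intervals that ran as wide as -0.19 to 0.87 for 264436_at. AT4G24780 differed by 0.01, with an interval from -0.19 to 0.21, and IAA29 by 0.11, from -0.25 to 0.46. With a block for each pair of an etr1-1 and a Col-0 array of like spray, time and replicate number, 11 members passed in limma, 4 higher and 7 lower, beside 11.2% of all probe sets, 5.6% in each direction. AT3G13760 (0.47, adjusted p = 0.0179) was the 1 named member it added. The calls of AT1G13730 and 256299_at held in all 14 fits that left out 1 array, those of DFR in 2 of 14 and of 251109_at in 4 of 14. The count was 2 without the GA4 array of replicate 1 at 1 h or the array of 3 h of either genotype. On the 6 GA4 arrays of DV001, DFR differed by 0.29 (adjusted p = 0.240, limma) and AT1G13730 by -0.75 (adjusted p = 0.00730, limma). With the batch as a block DFR kept an adjusted p of 0.0315 in limma.

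**Figure D4:**
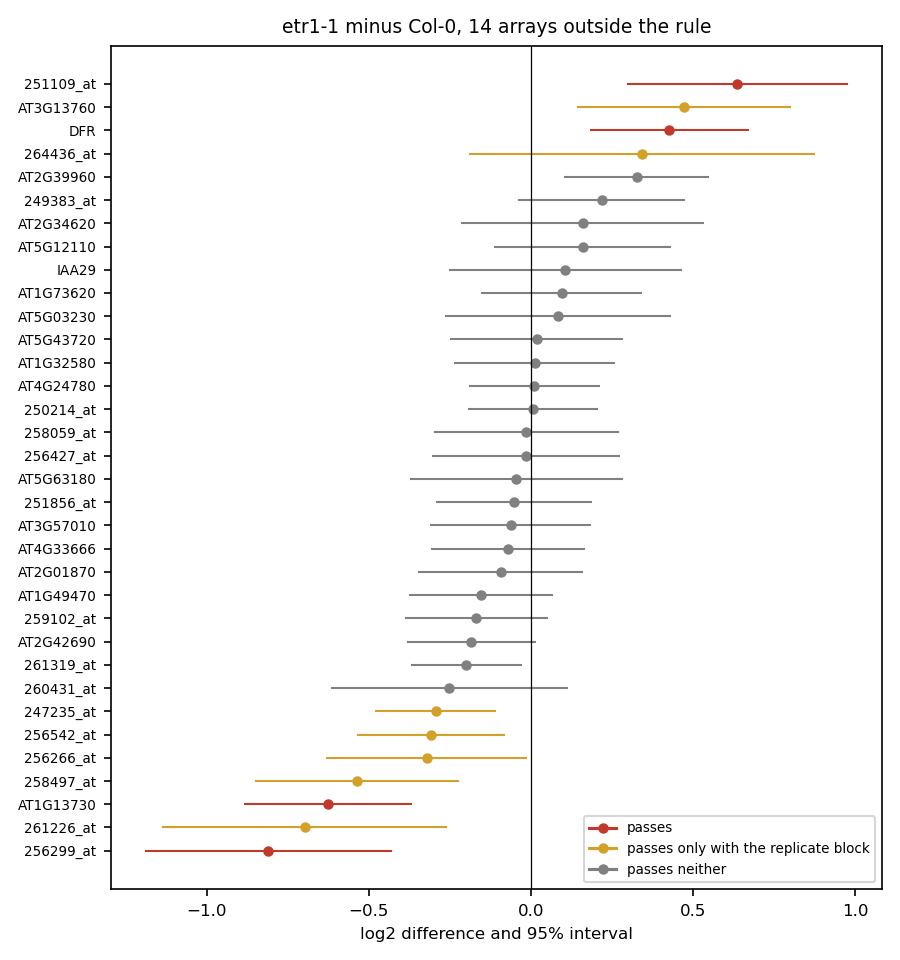
Log2 difference of etr1-1 from Col-0 (horizontal axis) with its 95% interval for the 34 members over the 14 arrays that the rule on the fall did not use. AT1G13730 and 256299_at lie lower in etr1-1 and DFR and 251109_at higher, and they pass in the fit without a block.

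The size of the fall itself did not part the genotypes one way. The members' median of etr1-1 minus Col-0 differences from 0 h was -0.05 and -0.13 on the DV002 water arrays of replicates 1 and 2 and 0.11 on the DV001 arrays that chose them. The corresponding medians over all probe sets were 0.01, 0.00 and 0.00. With 1 array of 0 h in each genotype this was not tested.

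GA4 was compared with water at 1 h on the 8 DV002 arrays, 2 per group, since the DV001 water arrays chose the members. No member passed in limma over both genotypes, in etr1-1, in Col-0 or in the difference between them, and 0% of all probe sets passed in each. At an unadjusted p under 0.05 in limma there were 277 of the 15922 probe sets over both genotypes (1.74%). There were 338 in etr1-1 (2.12%), 172 in Col-0 (1.08%) and 220 for the difference (1.38%). These shares are below what the p threshold alone lets pass where nothing differs. The fit left out the pairing by replicate number, and with that number as a block no member passed either. DFR in etr1-1 had the smallest p of the members, with 69.1 and 52.1 units after GA4 and 28.0 and 38.3 after water, a log2 difference of 0.64 ± 0.18 (SE, adjusted p = 1.00, limma). In DV001 it had 57.4 units after GA4 and 41.8 after water in etr1-1, and 39.3 after GA4 and 23.4 after water in Col-0. Over both genotypes 258059_at had 0.32 ± 0.11, and for the difference between the genotypes AT1G13730 had 0.78 ± 0.25, which likewise did not pass. The members' median difference over both genotypes was 0.00, and there the intervals of all 34 lay within a 2-fold change. Those of 33 did so in Col-0, of 31 in etr1-1 and of 22 for the difference between the genotypes.

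Gene groups fixed with earlier results known were thin on this array's named probe sets. Of 15 touch and wounding genes 3 were measured at the level and 0 were members: on the DV001 water arrays STZ, a zinc finger gene, differed by 0.56 in etr1-1 and 0.88 in Col-0, CML38, a calmodulin-like gene, by 1.23 and 0.58, and WRKY53 by 0.24 and 0.39. All 3 lay higher on the DV002 water arrays. STZ differed there by 1.13 and 1.78 in etr1-1 and by 1.40 and 1.67 in Col-0. The values of CML38 were 1.34 and 2.65 in etr1-1 and 1.76 and 2.35 in Col-0. Those of WRKY53 were 0.41 and 0.77 in etr1-1 and 0.49 and 0.58 in Col-0. Of 7 XTH genes of wall remodelling none was a member, and their medians were 0.22 in etr1-1 and 0.74 in Col-0. Unlike those medians, XTH32 lay below 0 h on every later array of both genotypes, with differences on the DV001 water arrays of -0.51 in etr1-1 and -0.27 in Col-0, and on those of DV002 of -1.05 and -0.53 in etr1-1 and -1.17 and -0.63 in Col-0. On the DV001 water arrays the 3 cold and abscisic acid genes had medians of 0.37 in etr1-1 and 0.21 in Col-0. The 3 genes of nuclear photosynthesis had -0.02 and 0.25, and neither group held a member. The 3 cold and abscisic acid genes lay higher on the DV002 water arrays. COR15A differed there by 0.75 and 2.35 in etr1-1 and by 2.29 and 2.90 in Col-0. COR15B had 1.00 and 1.71 in etr1-1 and 1.99 and 2.095 in Col-0. COR47 had 1.14 and 1.58 in etr1-1 and 0.98 and 1.31 in Col-0. Of 21 marker genes for roots, guard cells, epidermis and mesophyll only RCA, the mesophyll gene of Rubisco activase, and the guard cell gene FMA were measured at the level. On the DV001 water arrays RCA differed from 0 h by -0.02 in etr1-1 and 0.31 in Col-0, and on those of DV002 by -0.13 and 0.14 in etr1-1 and by -0.08 and -0.11 in Col-0. FMA differed by -0.01 in etr1-1 and 0.03 in Col-0 on the DV001 arrays, and by 0.06 and -0.10 in etr1-1 and -0.59 and -0.27 in Col-0 on those of DV002. The part of cell type shares in the members' falls was not tested. EXPA8, an expansin gene left out by the rule, had 99.7 units at 1 h on the DV001 water array and 223.3 at 0 h in etr1-1, and 134.2 at 1 h and 489.4 at 0 h in Col-0.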

How the data were processed

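The authors deposited 1 intensity per probe set on a linear scale for 18 ATH1 arrays, biotin-labelled per the labels' protocols; how they computed it is not stated. Trimmed of 2% at each end, array means lay between 100.007 and 100.008 units, so the deposited intensities were already scaled. They were used as log2(intensity + 16) with no further scaling, which understates changes of dim probe sets. Names came from the platform table and RefSeq (TAIR10.1).

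The members and gene lists were chosen with earlier results of these data known. Named genes are the members with 1 gene, those called or with the smallest p in a comparison, the extremes of GA4 3 h minus 30 min, members on lists, and the 4 on each side of the threshold.

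Tests used limma 3.58.1 (R 4.3.3, lmFit, eBayes with trend) on 15922 probe sets at or above the 30 th percentile of mean level, with Benjamini-Hochberg adjustment. The fits were checked on simulated data of independent arrays. These held no batch or replicate effect, so the check does not cover such effects. Fits had 14 arrays (9 residual degrees of freedom) or 8 (4). Groups with 1 array take the spread of the others. Replicate numbers, from the labels, pair the arrays at 1 h: the 18 pair correlations lay between 0.13 and 0.70. As alternatives the offset (1 or, for the rule, 32), the normalization (quantile), the filter, the trend, the threshold (0.10), blocks and the arrays used (each left out in turn) were varied. Promoter motifs were not analysed here.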

Additional observations from a re-analysis of the deposited data

Results flagged for a closer look

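The GA4 response of 258497_at at 1 h was noted because every pair of arrays had one sign in etr1-1 and the opposite sign in Col-0, where the differences were close to none. All 34 members were searched for such signs, and the share of all probe sets that has them was not counted. GA4 minus water for replicates 1, 2 and 3 was -0.11, -0.28 and -0.17 on the log2 scale in etr1-1 and 0.02, 0.06 and 0.03 in Col-0, a difference of means of -0.22. Over these 12 arrays, which include the DV001 water arrays that chose the members, the difference was not tested. No group had the 4 arrays needed to look for single arrays that stand apart.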

How the results depend on the processing

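The number of members depended on the rule's settings. It was 73 with an offset of 1, 15 with an offset of 32, 94 at a threshold of -0.4 and 11 at -0.6. With the DV002 water array of replicate 1 or 2 in place of DV001 it was 463 or 539, and with the mean of the 3 water arrays 210, of which 23, 21 and 25 are among the 34. The members' median difference from 0 h was -0.867 and -0.863 in etr1-1 and -0.784 and -0.802 in Col-0 with those DV002 arrays, and -0.808 in Col-0 with an offset of 1. Counts of called members are given here in the order genotype, GA4 3 h minus 30 min, 1 h minus 30 min and 3 h minus 1 h. With no filter they were 2, 0, 0 and 2 in limma. At an adjusted p of 0.10 the first, second and last were 8, 2 and 10. Quantile normalization gave 2 for 3 h minus 30 min and all 18 arrays gave 7 for the genotype. The batch as a block gave 4, 0 and 0 for the 3 time comparisons, and the 6 GA4 arrays of DV001 gave 5, 1 and 6, the last with 4 lower. With the replicate block they were 11, 6, 10 and 17. Its pairing was checked only at 1 h, and the last 2 contrasts then set DV001 arrays against DV002 arrays. Leaving out 1 array gave 2 to 5, 0 to 2, 0 to 5 and 0 to 11. The cause of these changes was not tested. GA4 against water gave 0 called members in all alternatives run, the block included. Of 272 values of single called members under alternatives 186 kept their call, 86 lost it and 0 turned their sign, while some members that were not called did turn theirs, such as 256299_at for 1 h minus 30 min (-0.22, and 0.38 on the DV001 arrays). Many members are dim, so the offset weighs on their size, and single arrays at 0 h, 30 min and 3 h limit every time comparison.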
